A study of Mus musculus with 15 samples.

Results

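A set of genes of the Z-disc, the boundary of the sarcomere at which actin filaments of neighbouring units are joined by α-actinin, were followed through isoproterenol treatment of the mouse heart. They were chosen by symbol, namely Ankrd1, Ankrd23, Fhl1, Fhl2, Csrp3, Tcap, Myoz2, Pdlim1, Xirp2 and Nrap, and are 10 of the 55401 genes in the files. All 10 were among the 26862 genes with a summed count of at least 10 that entered the tests. Male C57BL6 mice, 12 weeks old, received isoproterenol by daily subcutaneous injection at 50 mg/kg/day for 4 days (4 hearts), 8 days (3 hearts) or 11 days (4 hearts), and 4 hearts came from mice given saline. The drug stimulates the β-adrenergic receptors, as adrenaline does. A single saline group serves all 3 times, so the comparisons with saline share their control hearts, and the day on which the saline hearts were taken is not given in the sources used here. Ventricular tissue was sequenced, with 4 replicates per group according to the methods. The authors checked for outliers by principal component analysis and left out an 8-day replicate for quality issues. Libraries are named by group and replicate letter. They are called hearts here, but the labels do not state that each letter is a separate animal, so p-values measure the spread between these samples, which may be technical.

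The Z-disc holds the ends of titin, the giant spring protein of muscle, and is regarded as one of the places where a heart muscle cell reads stretch. Some of its proteins shuttle between the Z-disc and the nucleus, which is why they are often called stretch or stress sensors. Ankrd1 (CARP) and Ankrd23 (DARP) are ankyrin repeat proteins that bind the elastic part of titin. Fhl1 and Fhl2 are LIM domain proteins that also bind titin and signalling kinases. Tcap (telethonin) caps the ends of titin, and Csrp3 (muscle LIM protein) binds Tcap and α-actinin. Myoz2 (calsarcin-1) ties calcineurin to α-actinin, and Pdlim1 (CLP36) is a PDZ and LIM adaptor of α-actinin. Xirp2 (myomaxin) and Nrap carry actin-binding repeats, Nrap at the intercalated disc and in growing myofibrils.

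Libraries held 25404162 to 117777005 expected counts (median 46582824), and the 10 genes took 0.242 to 0.600% of them. The lowest of them, Pdlim1, had 283 to 1645 counts in a library. Its SD between hearts was 2.80% of the mean at 8 days and 11.3% in saline, so counting error can be a large part of its spread. In 8-day A, 15.8% of the counts belonged to CT010467.1 and Lars2, which had at most 0.0916% elsewhere, and count-based values at 8 days that turn on it are given without it. The cardiomyocyte marker list was detected in full in every library. Of 12 skeletal muscle markers Myh4 was at 0 counts in every library and Myh1, Myh2 and Pvalb reached at most 8, while Mybpc2 had 95 to 1457 and Eno3 10007 to 59700. Their summed level was 362 to 450 CPM in saline, 534 to 609 at 4 days, 556 to 611 at 8 days and 530 to 577 CPM at 11 days. Most of the counts in this sum were those of Eno3. Of the 11 tested, 4 had a positive and 7 a negative log2 change from saline at 4 days (median -0.11). The numbers were 6 and 5 at 8 days (median 0.15) and 4 and 7 at 11 days (median -0.33). Eno3, a muscle enolase, was called higher at each time and Tnnt3 at 4 days, of 11 tested, and the part of such cells in the results was not tested. Levels are CPM, the counts of a gene relative to the effective library size after scaling by TMM over all 15 libraries. Changes are given as log2 ratios to saline, each with a standard error (SE), from the quasi-likelihood test of edgeR, two-sided, and p-values are adjusted by the Benjamini-Hochberg method over all 26862 genes. The SE is the size of the change divided by the square root of the F statistic, and the 95% intervals rest on it. A gene was called past an adjusted p of 0.05. Without TMM, by library size alone, the median change over all genes went from 0.01 to 0.21 at 4 days and from -0.01 to -0.10 at 8 days, so changes are relative to the TMM scale. All genes called split into 1626 higher and 914 lower at 4 days, 288 and 322 at 8 days and 483 and 523 at 11 days, and by library size alone into 2533 and 293, 167 and 280, and 415 and 220.

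After 4 days 5 of the 10 genes were called, Ankrd1, Fhl1 and Xirp2 higher and Tcap and Myoz2 lower, where 9.46% of all tested genes were called (6.05% higher and 3.40% lower). After 8 days 3 were called, Ankrd1 and Fhl1 higher and Tcap lower, against 2.27% of all genes (1.07% higher and 1.20% lower). After 11 days 4 were called, Ankrd1 and Fhl1 higher and Tcap and Pdlim1 lower, against 3.75% of all genes (1.80% higher and 1.95% lower). Their median log2 fold change was 0.17 at 4 days, 0.20 at 8 days and 0.20 at 11 days, beside 0.01, -0.01 and -0.01 over all tested genes. The values of treated and saline hearts did not overlap for 5 of the 10 genes at 4 days, 8 at 8 days and 6 at 11 days, where 13.6%, 12.9% and 10.5% of all genes had groups that did not overlap. In one test over the 4 groups 6 of the 10 genes changed (Ankrd1, Fhl1, Tcap, Myoz2, Pdlim1 and Xirp2), where 13.0% of all genes did.

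**Figure D1:**
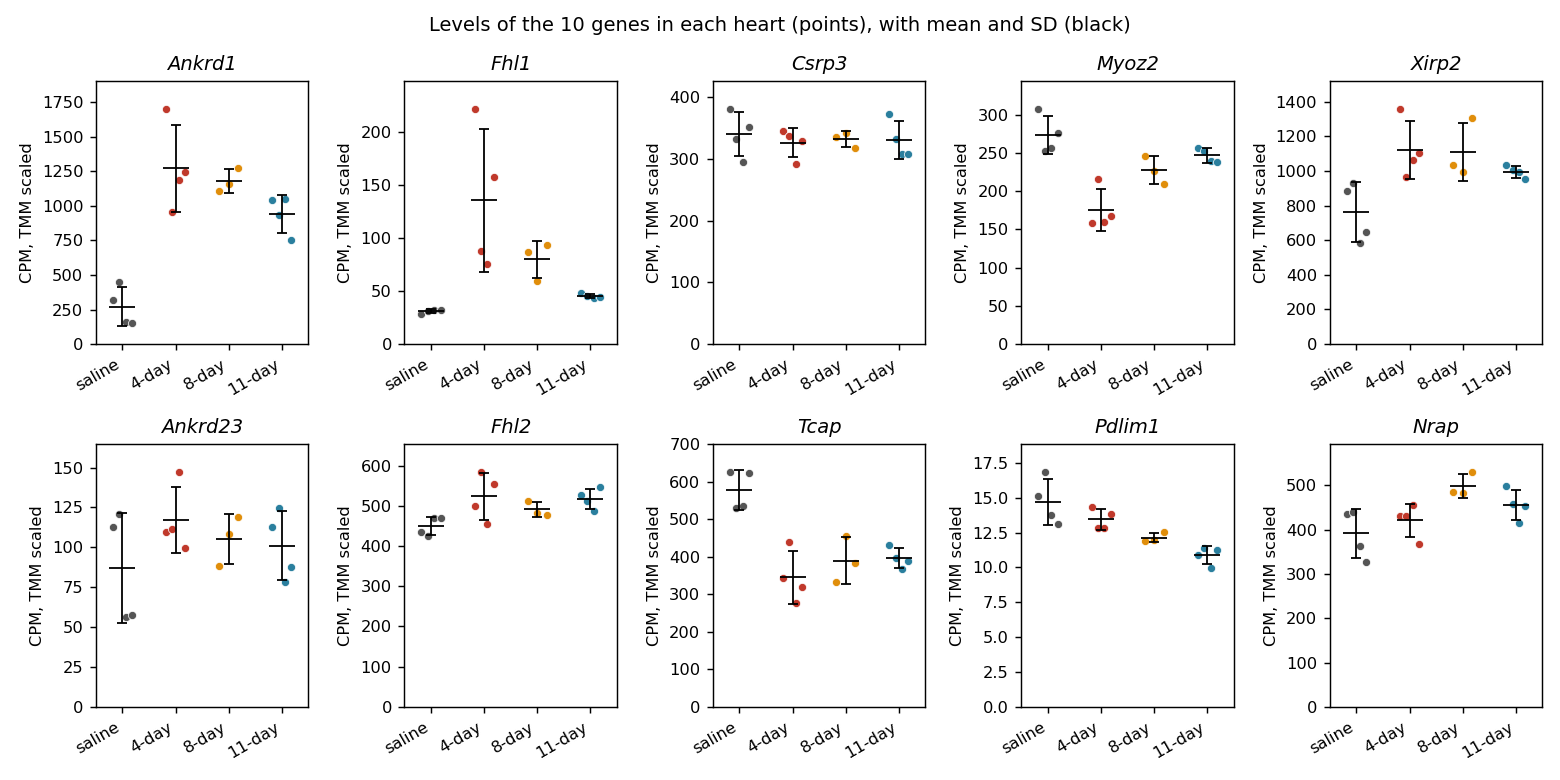
Level of each of the 10 genes (vertical axis, CPM scaled by TMM, starting at 0) in the 4 groups of hearts (horizontal axis), with 1 point per heart and the mean and SD in black. Ankrd1 lies between 155 and 452 CPM in saline and between 753 and 1699 CPM in every treated heart, and Fhl1 falls back from up to 221 CPM at 4 days to at most 48.4 CPM at 11 days.

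Ankrd1, a titin-binding repressor of transcription that heart muscle induces under load, rose at all 3 times. Its level in the saline hearts A to D was 317, 452, 158 and 155 CPM. In the 4-day hearts A to D it was 1699, 954, 1184 and 1248 CPM. All treated hearts lay above all saline hearts, and the saline hearts themselves fell into a higher pair (A and B) and a lower pair (C and D). The 8-day hearts had 1107, 1155 and 1274 CPM, and the 11-day hearts 1040, 935, 1047 and 753 CPM. The log2 fold change was 2.24 ± 0.31 (SE) at 4 days (4.72-fold, adjusted p = 0.00071), 2.12 ± 0.29 at 8 days (4.35-fold, adjusted p = 0.00198) and 1.79 ± 0.28 at 11 days (3.47-fold, adjusted p = 0.00332). With robust dispersions the adjusted p was 0.108 at 8 days and 0.0754 at 11 days. Over all alternatives it ran from 9.46e-18 to 0.278 at 8 days and from 4.1e-05 to 0.0783 at 11 days, with log2 fold changes of 1.92 to 2.48 and 1.61 to 2.16. Since ventricular tissue with its mixture of cells was sequenced, fewer cells of a type and less RNA per cell cannot be told apart here or in any result that follows.

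The promoter of Ankrd1 is shown because this gene rose at every time. The window runs from 250 bases before to 50 bases after the RefSeq start, at chr19:36119795-36120094 of GRCm38.p6 on the minus strand, and is written 5′ to 3′ in the direction of transcription. The motifs searched, on both strands, were the CArG box, the MEF2 site, CATTCC, which TEAD factors bind, AGATAA, which cardiac zinc finger factors of the Gata4 family bind, and the E-box CAGCTG. Capitals mark the matches, here to the reverse complement of CATTCC and of AGATAA.
Ankrd1: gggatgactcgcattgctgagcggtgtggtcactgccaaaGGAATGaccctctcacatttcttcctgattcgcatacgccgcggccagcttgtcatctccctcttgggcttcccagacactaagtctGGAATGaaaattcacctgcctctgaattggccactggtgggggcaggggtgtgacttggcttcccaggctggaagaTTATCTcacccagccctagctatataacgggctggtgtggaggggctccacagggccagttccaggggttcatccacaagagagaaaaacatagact
Counted from the RefSeq start, the CATTCC matches began at positions -210 and -123 and the AGATAA match at position -47. CATTCC was found in 14.7% of all 32851 promoter windows and AGATAA in 11.2%, so either match is common. Both windows of Ankrd23 held CATTCC too, at position -120 from one start and 36 from the other. The gene itself occupies chr19:36111961-36120099, and its protein-coding transcript Ankrd1-205 took 93.7 ± 0.991% (SD, n = 4) of its FPKM in saline and 94.2 ± 0.543% (n = 4) at 4 days.

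Ankrd23, the other ankyrin repeat protein of the set, was not called at any time. Its saline hearts A to D had 112, 121, 56.6 and 57.9 CPM and its 4-day hearts 110, 111, 147 and 99.8 CPM. The groups overlapped, because saline A and B, the hearts with the higher Ankrd1, were again the higher pair. The 8-day hearts had 88.5, 108 and 119 CPM and the 11-day hearts 113, 125, 78.5 and 87.7 CPM. The log2 differences were 0.43 ± 0.22 (95% interval -0.05 to 0.92, adjusted p = 0.289), 0.27 ± 0.23 (-0.23 to 0.77, adjusted p = 0.692) and 0.21 ± 0.23 (-0.29 to 0.70, adjusted p = 0.728). The annotation places Gm42417 over Ankrd23 on the same strand, with 0 to 73 counts in a library against at least 1371 for Ankrd23.

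Fhl1, a LIM protein that links titin to MAP kinase signalling, rose sharply and then came down. Its saline hearts A to D were close together, at 28.8, 31.1, 32.3 and 32.4 CPM. The 4-day hearts spread from 75.2 CPM in C through 87.8 in B and 157 in D to 221 CPM in A. At 8 days the hearts had 86.3, 59.8 and 93.3 CPM, and at 11 days 48.4, 45.0, 43.6 and 44.0 CPM. No treated heart reached down to the saline range, and the 4-day and 11-day hearts did not overlap either. The log2 fold change was 2.12 ± 0.27 at 4 days (4.36-fold, adjusted p = 0.000538), 1.35 ± 0.13 at 8 days (2.56-fold, adjusted p = 0.00019) and 0.53 ± 0.07 at 11 days (1.44-fold, adjusted p = 0.00118). At 8 days limma on FPKM gave 1.25 (adjusted p = 0.230, and 9.72e-18 to 0.230 over all alternatives). With all groups in one fit the 11-day change was 0.54 with an adjusted p of 0.233, and it ran from 4.14e-10 to 0.233 over all alternatives. Markers of other cells moved at 4 days too. The summed level of 12 fibroblast markers was 827 to 1025 CPM in saline and 5245, 1715, 4006 and 3565 CPM in 4-day A to D. Of the 12, 11 were called higher and 1, Gsn, lower. In 8-day A to C the sum was 1208, 1200 and 1924 CPM, and in the 11-day hearts 1174 to 1856 CPM. Macrophage markers summed to 125 to 199 CPM in saline and 234 to 389 CPM at 4 days, with 9 of 11 called higher. The part of these cells in the change of Fhl1 was not tested.

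The transcript of Fhl1 that led at 4 days was not the one that led in saline. Fhl1 lies on the plus strand at chrX:56731787-56793346, with 10 annotated transcripts that begin at several first exons. Fhl1-201 starts at position 56731787 and has 2 non-coding exons before its coding part. Fhl1-204 starts 47.9 kb further on, at position 56779723, and its first exon of 72 bases already codes. From there both share 5 exons, so that Fhl1-204 codes for 296 codons and Fhl1-201 for 280, the coding part of Fhl1-201 being contained whole in that of Fhl1-204. The stretch that begins the coding part of Fhl1-204 is shown because it is where the 2 products differ. Its first 22 bases are exon 1 (chrX:56779773-56779794) and the rest is exon 2 (chrX:56787989-56788017), taken from the GENCODE M21 transcript, with capitals for the start codon of Fhl1-204 and, 48 bases later and in frame, that of Fhl1-201.
Fhl1-204: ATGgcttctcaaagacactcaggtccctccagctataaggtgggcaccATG
The 16 codons before the second start codon are thus in Fhl1-204 and not in Fhl1-201.

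**Figure D2:**
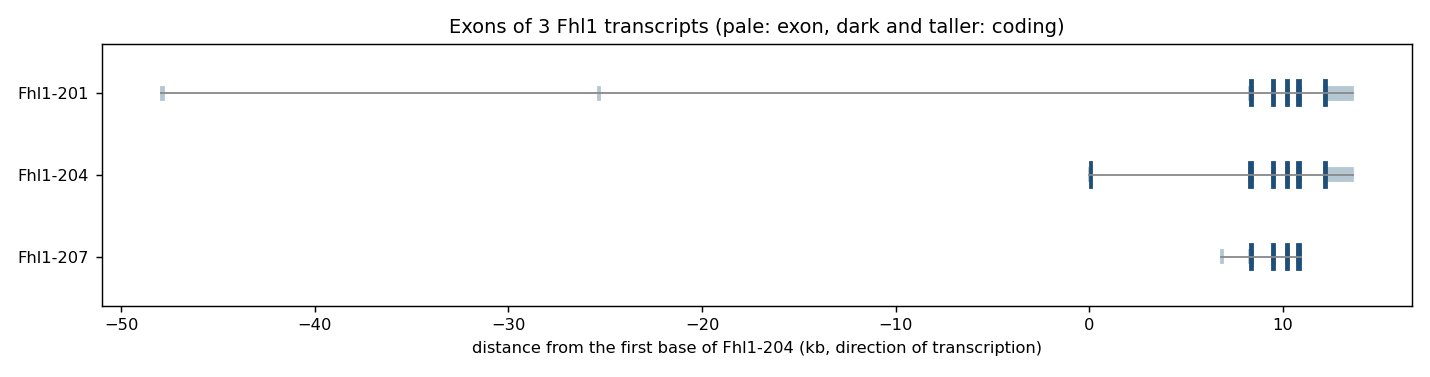
Exons of 3 Fhl1 transcripts by distance from the first base of Fhl1-204 (horizontal axis, kb, in the direction of transcription), pale where non-coding and dark and taller where coding. Exons shorter than 0.12 kb are drawn 0.12 kb wide, and the first exon of Fhl1-201 lies 47.9 kb before that of Fhl1-204.

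In saline Fhl1-201 took 77.0, 70.2, 79.0 and 70.4% of the FPKM of Fhl1 in hearts A to D, and Fhl1-204 took 9.21, 8.78, 5.53 and 12.6%. At 4 days the shares of Fhl1-201 were 14.7, 21.1, 32.8 and 19.7%, and those of Fhl1-204 were 64.7, 65.1, 43.9 and 70.3%. The order of the 2 transcripts was thus inverted in every 4-day heart. At 8 days Fhl1-204 still led in each heart, with 77.3, 44.6 and 53.8% against 16.6, 35.7 and 27.2% for Fhl1-201. By 11 days Fhl1-201 led again in each heart, with 59.7, 51.6, 55.9 and 61.2%, and Fhl1-204 held 26.4, 27.2, 28.6 and 21.1%. The mean share of Fhl1-201 was 74.1 ± 4.52% (SD, n = 4) in saline, 22.1 ± 7.66% (n = 4) at 4 days, 26.5 ± 9.57% (n = 3) at 8 days and 57.1 ± 4.28% (n = 4) at 11 days. The exact permutation test of its share against saline gave p = 0.0286 at 4 days and at 11 days, the smallest p that 4 against 4 hearts allow two-sided. At 8 days the groups did not overlap either, with an exact p of 0.0571, the smallest that 3 against 4 hearts allow. Adjusted over the 27 comparisons of leading transcripts, the 4-day and 11-day values became 0.257 by the exact permutation test, and 0 of 27 passed. With so few hearts a comparison could pass only if most of the 27 reached their smallest p, and an 8-day comparison not at all. The 0 was thus all but fixed by the group sizes, and nothing is drawn from it. An unadjusted p under 0.05 was found for 3, the other being Csrp3-201 at 4 days (97.0 ± 0.437% in saline and 98.1 ± 0.361% at 4 days, n = 4 each). Shares of expected counts in place of FPKM also gave 0 of 27, under the same limit, with 3 at an unadjusted p under 0.05. Here the third was Myoz2-201 at 11 days, and Csrp3-201 at 4 days had an exact permutation p of 0.371.

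On the CPM scale the level of Fhl1-201 stayed near that of saline, and that of Fhl1-204 was far above it. Fhl1-201 stood at 24.2, 24.6, 28.6 and 25.7 CPM in saline A to D and at 39.6, 20.8, 30.2 and 33.7 CPM in 4-day A to D. Fhl1-204 stood at 2.80, 2.96, 1.94 and 4.47 CPM in saline and at 168, 62.3, 39.0 and 116 CPM at 4 days. For Fhl1-201 the groups overlapped, and for Fhl1-204 the lowest 4-day heart was above the highest saline heart by a wide gap. At 8 days Fhl1-204 was at 68.4, 29.4 and 56.2 CPM, and at 11 days at 13.7, 13.6, 13.6 and 10.2 CPM. A test over all 83065 transcripts, added after the shares were seen, called Fhl1-204 higher at each time, where 0.170%, 0.00843% and 0.0421% of all transcripts were called at 4, 8 and 11 days. Its log2 fold change was 5.03 ± 0.51 at 4 days (32.6-fold, adjusted p = 0.0306), 4.1 ± 0.36 at 8 days (17.1-fold, adjusted p = 0.0438) and 2.09 ± 0.24 at 11 days (4.25-fold, adjusted p = 0.0396). For Fhl1-201 the values were 0.28 ± 0.18 (adjusted p = 0.712), -0.16 ± 0.21 (adjusted p = 0.986) and 0.18 ± 0.09 (adjusted p = 0.678). Fhl1-207, a shorter transcript whose first exon lies 6.80 kb after that of Fhl1-204, had 2.69 ± 0.60 at 4 days (adjusted p = 0.135), with 0.472 to 1.26 CPM in saline and 2.06 to 11.9 CPM at 4 days. The calls of Fhl1-204 are close to the threshold. Leaving out saline A, C or D or 4-day D ended the 4-day call (adjusted p up to 0.123 over all alternatives), leaving out any heart ended the 8-day call (up to 0.227), and leaving out any heart but saline D ended the 11-day call (up to 0.183), while its log2 fold change stayed within 4.595 to 5.27, 3.82 to 4.36 and 1.91 to 2.32. RSEM shares reads out between transcripts, and since these 2 share 5 exons their split rests on reads over the first exons.

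**Figure D3:**
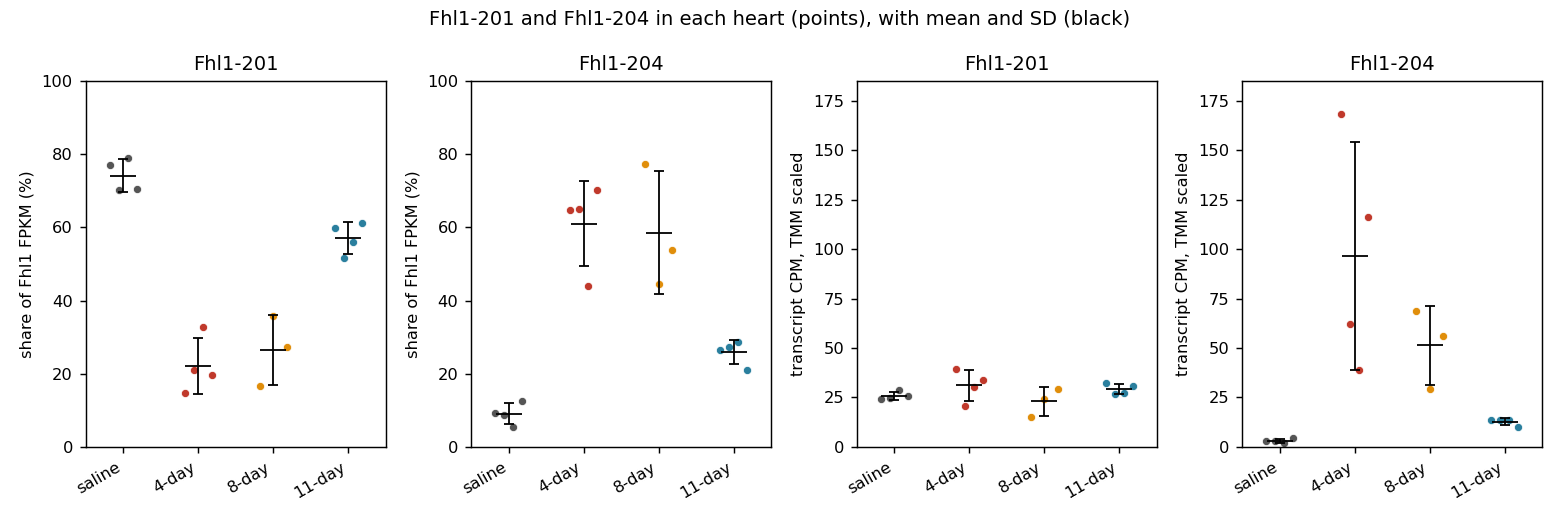
Share of the FPKM of Fhl1 (left panels, %) and level (right panels, CPM scaled by TMM) of the transcripts Fhl1-201 and Fhl1-204 in each heart (points) of the 4 groups, with the mean and SD in black. Fhl1-204 goes from 5.53 to 12.6% of the gene in saline to 43.9 to 70.3% at 4 days and 21.1 to 28.6% at 11 days, while Fhl1-201 stays between 15.2 and 39.6 CPM in all hearts.

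The promoter window that belongs to the first exon of Fhl1-204 is shown for the same reason. It lies at chrX:56779433-56779732 of GRCm38.p6 on the plus strand, and the GENCODE model of Fhl1-204 starts 40 bases after its RefSeq start, and capitals mark a CArG box, the element bound by SRF.
Fhl1: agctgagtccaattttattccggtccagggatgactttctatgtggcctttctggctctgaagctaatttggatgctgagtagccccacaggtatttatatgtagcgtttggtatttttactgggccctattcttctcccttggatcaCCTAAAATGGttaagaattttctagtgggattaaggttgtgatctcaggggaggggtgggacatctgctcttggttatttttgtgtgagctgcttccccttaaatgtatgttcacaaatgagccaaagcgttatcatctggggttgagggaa
The CArG box began at position -102 from the RefSeq start. Such a box was found in 1.63% of all windows, and the other window of Fhl1, whose RefSeq start is the start of Fhl1-207, held none of the 5 motifs searched. A window at the start of Fhl1-201 was not analysed here. Both windows of Fhl2 held a CArG box as well, at positions -31 and -96 from their starts.

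Fhl2, the heart-enriched LIM relative that binds titin and represses calcineurin signalling, changed little. Its saline hearts had 435, 426, 470 and 470 CPM and its 4-day hearts 501, 584, 454 and 555 CPM. The 8-day hearts had 513, 484 and 477 CPM, and the 11-day hearts 526, 512, 486 and 546 CPM. The 8-day and 11-day hearts lay above all saline hearts by a small step, and the 4-day hearts overlapped them. The log2 differences were 0.22 ± 0.10 (95% interval 0.01 to 0.43, adjusted p = 0.192), 0.12 ± 0.09 (-0.08 to 0.32, adjusted p = 0.662) and 0.19 ± 0.07 (0.04 to 0.35, adjusted p = 0.181), and none passed. With scaling by library size alone the 4-day value was 0.42 and passed (adjusted p = 0.0130, and 0.0130 to 0.373 over all alternatives). Its 2 main transcripts kept their shares, Fhl2-202 taking 60.2 ± 1.27% in saline and 60.9 ± 3.78% at 4 days (SD, n = 4 each).

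Tcap, the cap of titin, fell at all 3 times, and Csrp3, which binds it, was not called. Tcap stood at 627, 531, 536 and 624 CPM in saline A to D and at 344, 441, 276 and 320 CPM in the 4-day hearts. The 8-day hearts had 332, 456 and 383 CPM and the 11-day hearts 431, 398, 368 and 390 CPM. Every treated heart was below every saline heart. The log2 fold change was -0.74 ± 0.13 at 4 days (adjusted p = 0.00275), -0.58 ± 0.12 at 8 days (adjusted p = 0.0227) and -0.55 ± 0.08 at 11 days (adjusted p = 0.00271). At 8 days the call was lost without saline A (-0.54, adjusted p = 0.0752), saline D (-0.55, adjusted p = 0.0531), 8-day A (-0.49, adjusted p = 0.0937) or 8-day C (-0.56, adjusted p = 0.103), and the adjusted p ran from 0.000364 to 0.668 over all alternatives. At 11 days limma on FPKM gave -0.47 (adjusted p = 0.0834, and 4.2e-08 to 0.0834 over all alternatives). Tcap has 1 annotated transcript. Cardiomyocyte markers moved in the same direction at 4 days for 6 of 15 genes (Mb, Fabp3, Atp2a2, Tnni3, Tnni3k and Myl3) and opposite for 2, and the summed level of the list was 41448 to 48060 CPM in saline and 38251 to 43701 CPM at 4 days. At 8 days the list summed to 36438 to 41036 CPM, below every saline heart, with 3 of the 15 called lower and 1 higher. At 11 days it summed to 41145 to 45744 CPM, with 4 called lower and 0 higher. The part of the cell mixture in the change of Tcap was not tested.

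Csrp3 had 381, 333, 296 and 352 CPM in saline and 346, 338, 293 and 330 CPM at 4 days. Its 8-day hearts had 336, 343 and 319 CPM and its 11-day hearts 373, 333, 309 and 308 CPM. The ranges of all 4 groups overlapped. The log2 differences were -0.06 ± 0.10 (95% interval -0.26 to 0.15), -0.04 ± 0.10 (-0.26 to 0.18) and -0.05 ± 0.09 (-0.25 to 0.15), with adjusted p-values of 0.809, 0.929 and 0.858. These intervals bound a change in either direction at 0.26 on the log2 scale under TMM, and by library size alone the 4-day value was 0.15.

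Myoz2, the calcineurin-binding calsarcin of the heart, fell at 4 days and was back near the saline level by 11 days. Saline hearts A to D had 307, 253, 256 and 276 CPM, and the 4-day hearts 159, 215, 160 and 168 CPM. At 8 days the hearts had 246, 226 and 210 CPM and at 11 days 257, 253, 239 and 238 CPM. All 4-day hearts were below all saline hearts, and so were the 8-day hearts, whereas the 11-day hearts overlapped them. The log2 fold change was -0.64 ± 0.11 at 4 days (adjusted p = 0.00275), and the values at 8 and 11 days were -0.27 ± 0.10 (adjusted p = 0.259) and -0.15 ± 0.08 (95% interval -0.32 to 0.01, adjusted p = 0.346). On FPKM with limma the 4-day value was -0.44 (adjusted p = 0.0672, and 3.78e-06 to 0.0672 over all alternatives). Its promoter window, at chr3:123034938-123035237 on the minus strand, held a MEF2 site as CTATATATAG at position -33 from the start, a motif found in 0.557% of all windows, and a CAGCTG E-box at position -12 (16.3% of all windows).

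Pdlim1, the α-actinin adaptor with the lowest count of the 10 genes, was lower than in saline by 11 days. It had 15.1, 16.9, 13.7 and 13.1 CPM in saline and 14.3, 12.8, 12.8 and 13.8 CPM at 4 days. The 8-day hearts had 11.9, 12.0 and 12.5 CPM, and the 11-day hearts 10.9, 11.4, 9.95 and 11.3 CPM. The 4-day hearts overlapped saline, and the 8-day and 11-day hearts lay below it. The log2 fold change was -0.12 ± 0.09 (adjusted p = 0.479), -0.28 ± 0.11 (adjusted p = 0.249) and -0.44 ± 0.09 (adjusted p = 0.0153), of which the 11-day value passed. Without 11-day C it was -0.40 (adjusted p = 0.0525), and by library size alone -0.38 (adjusted p = 0.160, and 0.000938 to 0.326 over all alternatives). By 2 other settings, library size alone and limma on FPKM, the 4-day value turned positive (0.07 and 0.15). Transcripts annotated as retained introns took much of its FPKM, Pdlim1-203 33.2 ± 6.29% and Pdlim1-205 17.3 ± 2.05% in saline (SD, n = 4).

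Xirp2, which binds actin filaments and α-actinin, rose at 4 days, and that call was not stable to leaving out single hearts. Its saline hearts had 886, 933, 583 and 646 CPM, and its 4-day hearts 1357, 967, 1061 and 1105 CPM. The 8-day hearts had 1034, 997 and 1304 CPM and the 11-day hearts 1032, 1003, 992 and 952 CPM. At each time all treated hearts exceeded all saline hearts, by as little as 952 against 933 CPM, and saline A and B were once more the higher pair. The log2 fold change was 0.56 ± 0.15 at 4 days (1.48-fold, adjusted p = 0.0345), and the values at 8 and 11 days, 0.54 ± 0.16 (adjusted p = 0.118) and 0.38 ± 0.13 (adjusted p = 0.142), did not pass. The 4-day call was lost without saline C (0.46, adjusted p = 0.0956), saline D (0.49, adjusted p = 0.0958), 4-day A (0.45, adjusted p = 0.124), 4-day C (0.58, adjusted p = 0.0603) or 4-day D (0.57, adjusted p = 0.0766), and ran from 0.00825 to 0.124 over all alternatives. Without saline B the 8-day value was 0.65 and the 11-day value 0.49, and both passed (adjusted p = 0.0316 and 0.0317, within 0.0316 to 0.860 and 0.0317 to 0.308 over all alternatives). With all hearts the 8-day value also passed with no filter on low counts (adjusted p = 0.0377), with all groups in one fit (0.0481) and in DESeq2 (0.0400). Its promoter window, at chr2:67445752-67446051 on the plus strand, held a MEF2 site as CTAAAAATAG at position -74 from the start. Xirp2-202 took 89.7 ± 1.27% of its FPKM in saline and 90.2 ± 0.380% at 4 days (SD, n = 4 each).

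Nrap, the actin-binding scaffold of myofibril assembly, was not called against saline. It had 436, 440, 363 and 328 CPM in saline, 431, 431, 456 and 368 CPM at 4 days, 484, 483 and 530 CPM at 8 days and 498, 458, 414 and 454 CPM at 11 days. The 8-day hearts lay above all saline hearts, and the 4-day and 11-day hearts overlapped them. The log2 differences were 0.11 ± 0.11 (95% interval -0.13 to 0.35, adjusted p = 0.633), 0.35 ± 0.12 (0.10 to 0.60, adjusted p = 0.177) and 0.21 ± 0.10 (-0.005 to 0.43, adjusted p = 0.304). The genes Habp2 and Gm17197 overlap Nrap on the opposite strand, with at most 194 and 12 counts in a library against at least 7767 for Nrap.

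**Figure D4:**
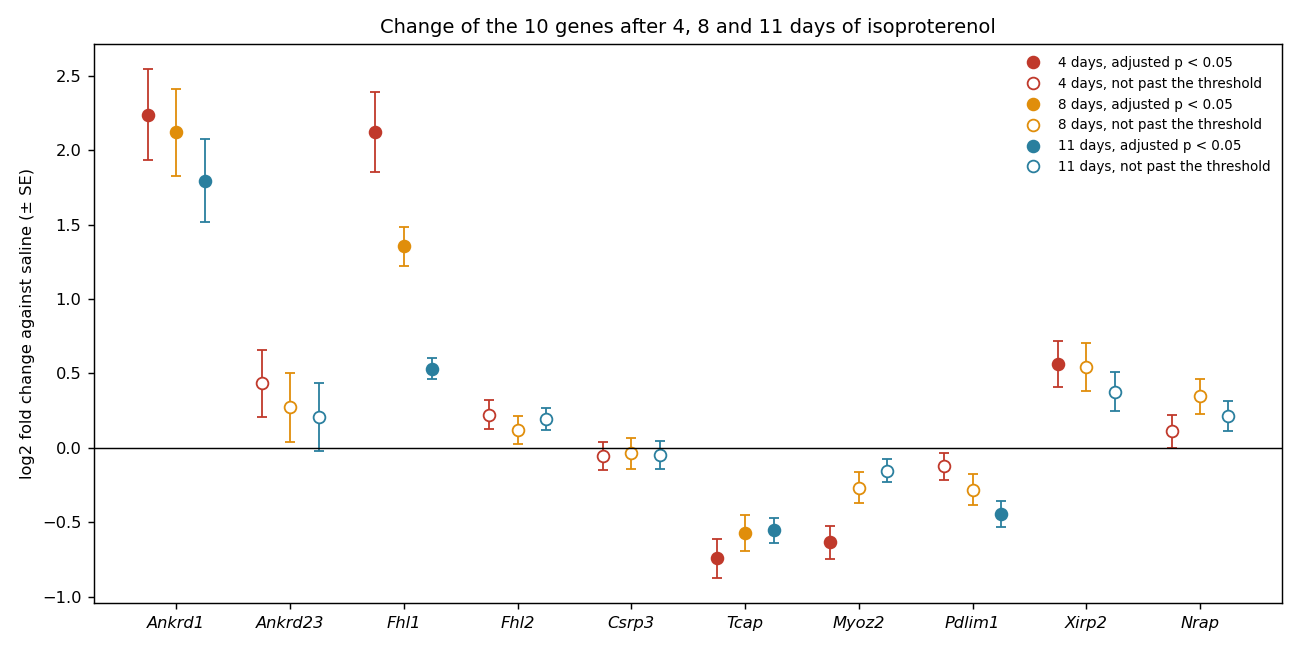
Log2 fold change against saline (vertical axis, with its SE) of the 10 genes (horizontal axis) after 4, 8 and 11 days, filled where past an adjusted p of 0.05 and open where not. Fhl1 goes from 2.12 over 1.35 to 0.53, Ankrd1 stays between 2.24 and 1.79, Tcap stays between -0.74 and -0.55, and Csrp3 stays within 0.06 of 0.

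Direct comparison of the treated groups asked which genes moved between times. From 4 to 8 days 0 of the 10 genes passed in edgeR (3 at an unadjusted p under 0.05, and 0 in DESeq2), where 0.249% of all genes did. By library size alone Fhl1 passed (-1.05, adjusted p = 0.0431, and 0.0431 to 0.705 over all alternatives), and without 4-day B Myoz2 did (0.49, adjusted p = 0.0164, and 0.0164 to 0.83). From 4 to 11 days 3 passed, where 10.3% of all genes did. Fhl1 fell by 1.59 ± 0.26 (adjusted p = 0.00189), Myoz2 rose by 0.49 ± 0.10 (adjusted p = 0.00567) and Pdlim1 fell by 0.32 ± 0.07 (adjusted p = 0.0132). The hearts of the 2 times did not overlap for these 3 genes. Without 4-day A the fall of Pdlim1 was -0.28 (adjusted p = 0.0572, and 0.00408 to 0.0572 over all alternatives). Without 4-day B 5 genes passed, and 3913 of all genes against 2766 with all hearts, with Ankrd1 at -0.54 (adjusted p = 0.0140) and Tcap at 0.35 (adjusted p = 0.0157) in addition. With all hearts Ankrd1 had -0.44 ± 0.15 (95% interval -0.76 to -0.11, adjusted p = 0.0877, and 0.0140 to 0.375 over all alternatives) and Tcap 0.19 ± 0.12 (-0.06 to 0.45, adjusted p = 0.368, and 0.0157 to 0.723). From 8 to 11 days Fhl1 alone passed, where 0.138% of all genes did, falling by 0.82 ± 0.12 (adjusted p = 0.0232). That call was lost without 8-day C (-0.70, adjusted p = 0.0692), 11-day B (-0.81, adjusted p = 0.0689) or 11-day D (-0.81, adjusted p = 0.0757), and ran from 4.96e-07 to 0.330 over all alternatives. Fhl1-204 fell by 2.92 ± 0.42 from 4 to 11 days (adjusted p = 0.0597 over all transcripts, of which 0.0626% were called, and 0.0305 to 0.171 over all alternatives), where Fhl1-201 had -0.09 ± 0.17 (adjusted p = 0.957).

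Levels were compared between genes per length, as FPKM, in the 4 saline hearts. Tcap was highest at 715 ± 62.2 FPKM (SD, n = 4), followed by Csrp3 at 457 ± 56.4 and Fhl2 at 334 ± 29.9 FPKM, and these 3 did not overlap. Myoz2 came next at 261 ± 33.4 FPKM, then Ankrd1 at 145 ± 85.4, Nrap at 75.3 ± 16.8, Xirp2 at 69.2 ± 19.7 and Ankrd23 at 50.2 ± 23.9 FPKM. From Fhl2 to Ankrd23 each gene overlapped the next in this order. Pdlim1 at 17.96 ± 3.28 and Fhl1 at 15.4 ± 1.57 FPKM were lowest, below all others and overlapping each other. At 4 days the mean of Ankrd1 was 773 ± 221 FPKM and that of Tcap 486 ± 68.3 FPKM (n = 4 each), so the order of these 2 means was inverted. Fhl1 reached 79.9 ± 43.3 FPKM.

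**Figure D5:**
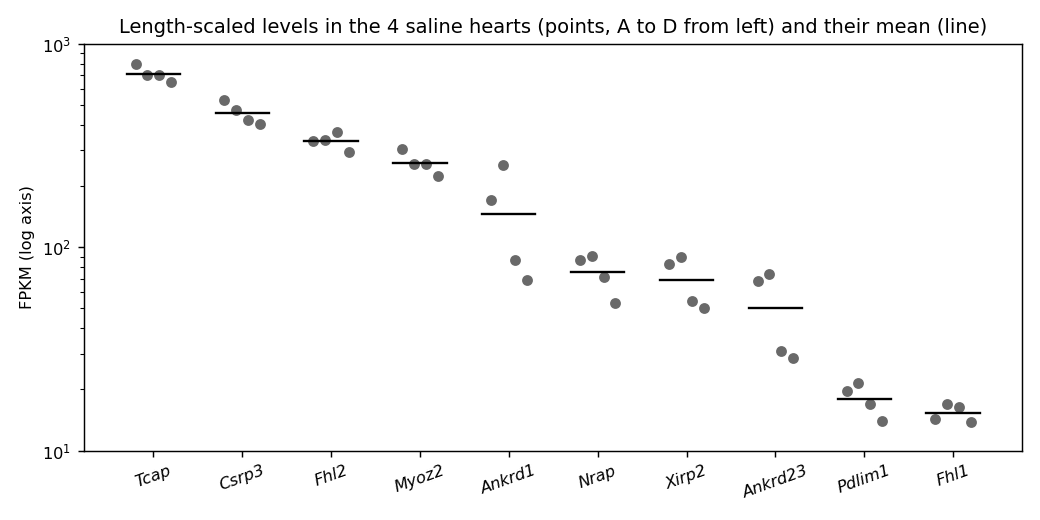
FPKM of the 10 genes in the 4 saline hearts (vertical axis, logarithmic), in the order of their means (lines), with hearts A to D from left to right in each gene. Hearts A and B are both above C and D for every gene but Fhl1 and Fhl2, and the means run from 715 FPKM for Tcap to 15.4 FPKM for Fhl1.

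Genes of like pattern were sought for the 3 genes called at every time, among 8530 genes with a mean of at least 5 CPM, by Pearson's r of log2 CPM over the 15 libraries. These values describe a likeness only, since the libraries fall into 4 groups and share their scaling. Nearest to Ankrd1 were Mt2 (r = 0.95), a metallothionein, Pam (0.95), which amidates peptide hormones, Hbegf (0.94), an EGF receptor ligand, Anxa4 (0.93) and Nudt13 (0.93). Nearest to Fhl1 were Tbx20 (0.95), a cardiac T-box factor, Plp2 (0.95), Ndrg4 (0.94), Bgn (0.93), a matrix proteoglycan, and Dpy19l1 (0.93). Nearest to Tcap were Etfdh (0.93), an enzyme that passes electrons from fatty acid oxidation to the respiratory chain, Myl3 (0.92), the ventricular essential light chain, Hrc (0.92), a calcium-binding protein of the sarcoplasmic reticulum, Hadha (0.92), an enzyme of fatty acid oxidation, and Nudt7 (0.92).

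The 18 relatives of the 10 genes, from the Ankrd, FHL, CSRP, PDLIM, nebulin, Xin and myozenin families, were counted beside them. At 4 days 3 rose and 0 fell (median 0.21), at 8 days 1 rose and 0 fell (median 0.02), and at 11 days 1 rose and 0 fell (median -0.06). Of all tested genes 9.46%, 2.27% and 3.75% were called at these times. Csrp2, a LIM protein of smooth muscle, rose by 1.43 ± 0.23 at 4 days (adjusted p = 0.00163) and had 0.49 and 0.44 at 8 and 11 days (adjusted p = 0.328 and 0.238). Ankrd2, the skeletal muscle relative of Ankrd1, rose by 2.24 ± 0.61 at 4 days (adjusted p = 0.0352) and had 0.11 and -0.67 later (adjusted p = 0.981 and 0.725). Pdlim2, an adaptor of the same family as Pdlim1, rose by 0.68 ± 0.17 at 4 days (adjusted p = 0.0234) and had 0.06 and 0.14 later (adjusted p = 0.949 and 0.721). Neb, nebulin, rose by 1.36 ± 0.27 at 8 days (adjusted p = 0.0182) and 0.90 ± 0.21 at 11 days (adjusted p = 0.0283), with 0.49 ± 0.30 at 4 days (adjusted p = 0.379). From 4 to 11 days 7 of the 18 fell and 1 rose, where 10.3% of all genes were called. Those that fell included Ankrd2 (-2.92 ± 0.52, adjusted p = 0.00324), Fhl3 (-0.73 ± 0.14, adjusted p = 0.00467), Csrp2 (-0.99 ± 0.19, adjusted p = 0.00477) and Pdlim5 (-0.54 ± 0.13, adjusted p = 0.0145).

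Of 53 other genes on a list for the Z-disc and the titin I-band, 5 rose and 4 fell at 4 days (median -0.01), 2 rose and 1 fell at 8 days (median -0.03), and 2 rose and 5 fell at 11 days (median -0.05). The list also holds genes of the M-band. The share of all tested genes called was 9.46%, 2.27% and 3.75% at these times. Hspb7, a small heat shock protein of the sarcomere, rose by 0.58 ± 0.10 at 4 days (adjusted p = 0.00318) and 0.68 ± 0.12 at 8 days (adjusted p = 0.00802), with 0.18 ± 0.10 at 11 days (adjusted p = 0.374). Fbxo32, the muscle ubiquitin ligase atrogin-1, rose by 0.59 ± 0.10 at 8 days (adjusted p = 0.00535) and 0.52 ± 0.11 at 11 days (adjusted p = 0.0156), with 0.30 ± 0.10 at 4 days (adjusted p = 0.0929). Synpo2, an actin-bundling Z-disc protein, fell by 0.37 ± 0.08, 0.37 ± 0.09 and 0.38 ± 0.08 (adjusted p = 0.00834, 0.0494 and 0.0179). Lrrc39 and Myom2, both of the M-band, fell by 0.72 ± 0.13 and 0.69 ± 0.14 at 4 days (adjusted p = 0.00423 and 0.00644) and had -0.30 ± 0.11 and 0.03 ± 0.10 at 11 days (adjusted p = 0.178 and 0.931). Synpo2l and Palld fell by 0.68 ± 0.08 and 0.68 ± 0.12 at 11 days (adjusted p = 0.000556 and 0.00879). At 4 and 8 days Synpo2l had -0.39 ± 0.10 and -0.37 ± 0.11 (adjusted p = 0.0294 and 0.0999) and Palld -0.23 ± 0.13 and -0.30 ± 0.13 (adjusted p = 0.339 and 0.349). From 4 to 11 days 5 of the 53 rose and 8 fell, where 10.3% of all genes were called. Myom2 rose by 0.72 ± 0.13 (adjusted p = 0.00403) and Cmya5 by 0.53 ± 0.11 (adjusted p = 0.00781). Actn2, the cardiac α-actinin, fell by 0.47 ± 0.09 (adjusted p = 0.00592) after a rise of 0.35 ± 0.10 at 4 days (adjusted p = 0.0443).

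Genes known as targets of YAP and TEAD or of MRTF and SRF, 29 of which were measured, were counted because TEAD and SRF motifs are among those searched. At 4 days 2 rose and 1 fell (median 0.12), at 8 days 1 rose and 0 fell (median -0.10), and at 11 days 0 rose and 2 fell (median -0.10). Beside these counts, 9.46%, 2.27% and 3.75% of all tested genes were called. Acta1, the skeletal α-actin that the stressed heart re-expresses, rose by 2.64 ± 0.47 at 4 days (adjusted p = 0.00312) and 1.96 ± 0.48 at 8 days (adjusted p = 0.0497), and had 0.57 ± 0.46 at 11 days (adjusted p = 0.599). Axl, a receptor kinase, rose by 0.52 ± 0.13 and Amotl2, a YAP-binding scaffold, fell by 0.44 ± 0.11 at 4 days (adjusted p = 0.0190 and 0.0199). The cytoplasmic actins Actb and Actg1 fell by 0.43 ± 0.09 and 0.54 ± 0.09 at 11 days (adjusted p = 0.0225 and 0.00516). From 4 to 11 days 12 of the 29 fell and 2 rose, where 10.3% of all genes were called. Those that fell included Acta1 (-2.07 ± 0.18, adjusted p = 0.000137), Actg1 (-0.76 ± 0.12, adjusted p = 0.00135), Tpm4 (-0.53 ± 0.08, adjusted p = 0.00137) and Ccn2 (-1.24 ± 0.21, adjusted p = 0.00241). From 8 to 11 days Acta1 fell by 1.39 ± 0.20 (adjusted p = 0.0232).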

How the data were processed

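Total RNA of mouse heart ventricle was sequenced in 15 libraries (TruSeq total RNA kit). Per the labels, the authors trimmed reads with cutadapt 4.1 (quality cutoff of 20 and minimum length of 50 per the methods), and used HISAT2 2.2.1, RSEM 1.3.3 and the build GRCm38.p6; the strand setting is not given in the sources used here. The authors deposited RSEM expected counts and FPKM per gene and per transcript, with isoform percent per transcript, which was not used here. The 10 genes and all lists were chosen with earlier results of these data known.

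Expected counts were rounded, genes with a summed count of at least 10 were kept, and each pair of groups was fitted with edgeR 4.0.16 (TMM, quasi-likelihood test, R 4.3.3) with Benjamini-Hochberg adjustment over all genes. The four-group test used all 15 libraries. All 10 genes are named at every comparison with saline, and of each list and comparison up to 4 called genes with the smallest p, with values at other times. Genes of like pattern are the 5 of highest Pearson's r of log2 CPM (prior count of 2) among genes with a mean of at least 5 CPM. Transcript shares were computed from the deposited FPKM as percent of the gene's sum and tested by exact permutation (scipy 1.17.1). The same edgeR test over all transcripts was added after the shares were seen. Gene models are GENCODE M21, matching 54349 of 55401 versioned identifiers, and promoter windows are from RefSeq (GRCm38.p6), found for 9 of the 10 genes. Limma 3.58.1 on log2 FPKM with a pseudocount of 0.1, DESeq2 1.42.0 and other scalings and filters were alternatives. No libraries were duplicates by a chi-square test. Code was tested on simulated data. The replicate letters shared by the groups were not treated as pairing the libraries.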

Additional observations from a re-analysis of the deposited data

Results flagged for a closer look

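Among 42 groups of 4 libraries tested with Dixon's criterion, 2 held a library far from the rest, where chance gives about 1 in 20. Myoz2 stood at 215 CPM in 4-day B and at 159 to 168 CPM in the other 4-day hearts. The Fhl1 transcript Fhl1-204 stood at 10.2 CPM in 11-day D and at 13.6 to 13.7 CPM in the other 11-day hearts.

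The difference from saline itself differed between times for 3 genes by the edgeR test of one time against another. The log2 change of Fhl1 was lower by 1.59 at 11 than at 4 days (-1.59, adjusted p = 0.00189) and lower by 0.82 at 11 than at 8 days (-0.82, adjusted p = 0.0232). That of Myoz2 was higher by 0.49 at 11 than at 4 days (adjusted p = 0.00567), and that of Pdlim1 differed by -0.32 (adjusted p = 0.0132).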

How the results depend on the processing

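Of the single-gene values recomputed with all hearts, 470 kept direction and side of the threshold, 15 fell short of it, 10 came to pass it and 15 turned sign. With limma on FPKM 0 of the 10 genes passed at 8 days (3 at an unadjusted p under 0.05) and 1 at 11 days, with library size alone 1 passed from 4 to 8 days, 0 from 8 to 11 days (1 unadjusted) and 3 over the 4 groups, and with all groups in one fit 0 from 8 to 11 days (1 unadjusted). FPKM was used without TMM scaling, and the fit on FPKM was not repeated without 8-day A. In 8-day A to C, Ankrd1 had 430, 583 and 759 FPKM, beside 1107, 1155 and 1274 CPM under TMM. The part of 8-day A in the values on FPKM was not tested. Leaving out 1 heart gave 4 to 5 genes at 4 days, 2 to 4 at 8 days, 3 to 5 at 11 days, 0 to 1 from 4 to 8 days, 2 to 5 from 4 to 11 days, 0 to 1 from 8 to 11 days and 5 to 6 over the 4 groups. Signs turned for small values, the largest being Nrap at 0.24 ± 0.10 and Tcap at 0.17 ± 0.15 from 4 to 8 days under TMM. For that comparison the median change over all genes was -0.02 under TMM and -0.32 by library size alone. By library size alone Csrp3 had 0.15 and Pdlim1 0.072 at 4 days and Csrp3 0.029 at 11 days, Csrp3 had -0.27, Tcap -0.084 and Nrap -0.039 from 4 to 8 days, Csrp3 -0.12 and Nrap -0.029 from 4 to 11 days, and Ankrd23 0.055, Csrp3 0.15 and Nrap 0.011 from 8 to 11 days. By limma on FPKM Csrp3 had 0.13 and Pdlim1 0.15 at 4 days and Csrp3 0.027 at 11 days. Leaving out 1 heart, Csrp3 ran from -0.11 to 0.0018 at 4 days, -0.099 to 0.018 at 8 days, -0.11 to 0.017 at 11 days, -0.030 to 0.050 from 4 to 8 days, -0.042 to 0.058 from 4 to 11 days and -0.071 to 0.022 from 8 to 11 days. From 4 to 8 days Ankrd1 ran from -0.23 to 0.053 and Xirp2 from -0.15 to 0.080, from 4 to 11 days Fhl2 ran from -0.088 to 0.047, and from 8 to 11 days Tcap ran from -0.081 to 0.14 and Ankrd23 from -0.17 to 0.039. Fhl1-201 ran from -0.39 to 0.052 at 8 days and from -0.24 to 0.054 from 4 to 11 days. The cause was not tested. Counts over all genes moved as well. With limma on FPKM 5 genes were called at 8 days and 121 at 11 days, against 610 and 1006 by edgeR. By library size alone 535 were called from 4 to 8 days and 82 from 8 to 11 days, and with all groups in one fit 1 from 8 to 11 days, against 67 and 37 for these comparisons. Without 4-day B 719 were called from 4 to 8 days, and without 8-day C, 11-day B or 11-day D 11, 14 and 3 from 8 to 11 days.

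Same-lettered libraries had correlations of -0.385 to 0.405 over 21 pairs, 4 of them over 0.1, so the letters were not treated as pairing. With the replicate block 5, 3 and 5 genes passed at 4, 8 and 11 days, Xirp2 being added at 11 days (0.41, adjusted p = 0.0444), 0, 4 and 1 passed between times, Ankrd1 being added from 4 to 11 days (-0.42, adjusted p = 0.0387), 6 passed over the 4 groups, and Csrp3 had 0.019 from 8 to 11 days.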
